A study of Mus musculus with 18 samples.

Results

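The genes described here encode one insulin-like growth factor (IGF), the IGF receptors, 6 IGF binding proteins and an adaptor of the receptor: Igf1, Igf1r, Igf2r, Igfbp2 to Igfbp7 and Irs1. They were taken by gene name from the deposited expression table, and all 10 were found among its 30452 genes. MC3T3-E1, a mouse cell line of pre-osteoblasts, was grown on Co60-irradiated membrane slices 15 mm across, and its RNA was taken after 5 days. The groups were PLLA/ZnO@Col with (+US) and without (-US) ultrasound, PLLA/ZnO +US and -US, and PLLA +US and -US, with 3 libraries each and 18 in all. PLLA is a biodegradable polyester, PLLA/ZnO holds zinc oxide as well, PLLA/ZnO@Col adds collagen to that, and ultrasound was given for 10 min every day. The series asks whether such piezoelectric membranes favour bone formation. All groups are 1 cell line on a polyester membrane, so there is no group on ordinary plastic, and the labels do not say that libraries of a group came from separate cultures. The p-values therefore measure only the spread between these libraries, which may be technical.

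IGF1 is a secreted growth factor that osteoblasts make and respond to. It binds IGF1R, a receptor tyrosine kinase, which signals through IRS adaptors to the PI3 kinase and AKT pathway and through SHC1 and GRB2 to the MAP kinases. IGF2R, also called the cation-independent mannose-6-phosphate receptor, carries IGF2 and lysosomal enzymes to lysosomes and has no kinase; in mice its gene is imprinted and is transcribed mainly from the maternal allele. The binding proteins hold IGFs outside the cell, and proteases such as the pappalysins PAPPA and PAPPA2 release them by cutting the binding protein. In bone, IGFBP4 is known as an inhibitor of IGF action, IGFBP5 as a matrix-bound form and IGFBP6 as a binder that prefers IGF2, while IGFBP7 binds IGFs only weakly.

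Libraries differed within groups as well as between them, and several values below move with those differences. Depth ranged from 48307580 to 78039543 counts. The summed level of 4 Y-linked genes (Ddx3y, Eif2s3y, Kdm5d and Uty) was 0.185 to 6.10 FPKM (fragments per kilobase of gene, scaled to library depth) in 7 libraries and 10.5 to 21.8 FPKM in the other 11. The 7 are all 3 PLLA/ZnO@Col +US libraries, PLLA/ZnO@Col -US replicates 1 and 3, PLLA/ZnO +US replicate 3 and PLLA +US replicate 3. Mitochondrial genes took 1.57% to 2.27% of counts in these 7 and 2.31% to 4.54% in the 11. In 3 of the 7, namely replicate 1 of PLLA/ZnO@Col +US with replicates 1 and 3 of PLLA/ZnO@Col -US, the 4 genes reached at most 0.386 FPKM, and Thy1, a mesenchymal surface marker, reached at most 0.128 FPKM, against 2.55 to 5.79 FPKM in the other 15. Of 9 osteoblast lineage markers, Spp1 lay between 637 and 3609 FPKM, Col1a1 between 500.4 and 1165, Sparc between 345 and 730, Col1a2 between 266 and 747 and Runx2 between 6.22 and 9.54 FPKM, whereas Sp7, Bglap, Alpl and Ibsp reached at most 0.746, 0.626, 0.178 and 0.0286 FPKM. Markers of endothelium and epithelium summed to at most 0.222 and 0.231 FPKM. Of 7 macrophage and osteoclast markers, the leukocyte marker Ptprc reached 0.0935 FPKM, Adgre1 0.0813, Acp5 0.114 and Csf1r 1.68 FPKM. Lyz2, a lysozyme gene of macrophages, lay between 4.996 and 26.8 FPKM, Ctsk between 4.89 and 16.7 and Cd68 between 0.381 and 5.97 FPKM. The 7 macrophage and osteoclast markers summed to 13.4 to 40.9 FPKM on PLLA/ZnO@Col +US, 23.2 to 39.5 on PLLA/ZnO@Col -US, 14.2 to 33.0 on PLLA/ZnO +US, 15.0 to 32.4 on PLLA/ZnO -US, 17.4 to 32.8 on PLLA +US and 32.1 to 34.2 on PLLA -US, and their part in the results was not tested. In bulk RNA, fewer cells that express a gene and less of its RNA per cell cannot be told apart.

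The binding proteins were made very unequally, and 3 of the 6 held almost all of their RNA. Igfbp4, Igfbp6 and Igfbp7 together made up 98.7% to 99.7% of the summed FPKM of the 6 genes, with medians of 30.2%, 21.4% and 47.3%. Igfbp7 (chromosome 5, 77349240 to 77408041, GRCm38) lay between 73.1 and 154 FPKM over the 18 libraries with a median of 99.9 FPKM, and Igfbp4 (chromosome 11, 99041244 to 99054392) between 46.9 and 95.4 FPKM with a median of 64.0 FPKM. Igfbp6 (chromosome 15, 102144362 to 102149511) lay between 31.3 and 70.6 FPKM with a median of 45.4 FPKM. Within a library Igfbp7 stood above Igfbp4 in 17 of 18 and Igfbp4 above Igfbp6 in 18 of 18, although the ranges of neighbouring genes overlap. Igfbp5 (chromosome 1, 72857932 to 72874884) was far lower, between 0.436 and 2.30 FPKM, and varied 5.27-fold between its lowest and its highest library, the widest spread of the 8 members that could be tested.

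Igfbp2 and Igfbp3 were close to the detection limit. Igfbp2 (chromosome 1, 72824503 to 72852474) had between 0 and 68 counts per library, at most 0.417 FPKM, and no count in 5 of 18 libraries. It lies 5457 bases from Igfbp5 on the same chromosome, and both genes end towards each other. Igfbp3 (chromosome 11, 7206086 to 7213923), which encodes the main carrier of IGFs in blood, had no count in 13 of 18 libraries. A count of 0 allows up to 0.0104 to 0.0168 FPKM of Igfbp3, depending on the library, taking 3 counts as the limit and covering counting error only. Its 51 counts in PLLA +US replicate 3 compare with at most 6 in any other library. Igfbp2 had its 68 counts in the same library, in which Kap, whose protein is known from kidney, was at 62.4 FPKM, against 0 in the other 17. The part of this library in both values was not tested. Neither gene reached 1 FPKM in 3 libraries, so both stayed out of the tests.

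The start regions of an abundant and of a nearly silent binding protein gene on the same chromosome are shown as reference sequence, to set what the DNA holds beside the RNA levels. Each is the RefSeq window (GRCm38.p6) of 250 bases before and 50 bases after the start, on the gene's own strand, chr11:99040994-99041293 on the plus strand for Igfbp4 and chr11:7213874-7214173 on the minus strand for Igfbp3. Capitals mark the motifs TATAAA and GGGCGG on either strand.
Igfbp4: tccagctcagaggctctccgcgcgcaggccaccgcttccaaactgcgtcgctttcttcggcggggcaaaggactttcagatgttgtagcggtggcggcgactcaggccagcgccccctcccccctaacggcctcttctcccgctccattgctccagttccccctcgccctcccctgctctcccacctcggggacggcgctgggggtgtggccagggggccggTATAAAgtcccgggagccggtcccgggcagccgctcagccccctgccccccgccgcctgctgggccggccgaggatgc
Igfbp3: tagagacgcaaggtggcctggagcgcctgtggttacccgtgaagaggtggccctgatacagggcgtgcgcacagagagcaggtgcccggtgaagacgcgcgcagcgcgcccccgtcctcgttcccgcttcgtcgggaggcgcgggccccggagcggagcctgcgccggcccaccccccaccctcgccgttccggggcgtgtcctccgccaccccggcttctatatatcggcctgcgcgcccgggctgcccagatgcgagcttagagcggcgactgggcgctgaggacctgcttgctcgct
The Igfbp4 window holds 1 TATAAA, whose first base lies 28 bases before the start, and the Igfbp3 window holds no exact TATAAA. Only exact matches were searched, so the run tatatat in the Igfbp3 window is neither marked nor counted. TATAAA occurs in 13.6% of 32851 windows of this length and GGGCGG in 35.7%. Igfbp3 is the gene with near-zero RNA, yet its window has 37 CG dinucleotides and 71.7% G and C, against 27 and 71.3% in the Igfbp4 window, and the median window has 7 CG dinucleotides. These are letters in a window and say nothing of which factor binds.

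Among the other members, the receptor Igf2r was the most abundant and the ligand Igf1 the least. Igf2r (chromosome 17, 12682406 to 12769664) lay between 18.5 and 56.5 FPKM with a median of 33.4 FPKM, and it exceeded Irs1 in all 18 libraries without overlap of their ranges. Irs1 (chromosome 1, 82233101 to 82291416), the receptor's adaptor, and Igf1r (chromosome 7, 67952827 to 68233668) had medians of 7.15 and 6.96 FPKM and do not separate: Irs1 was the higher of the pair in 11 of 18 libraries. Igf1 (chromosome 10, 87858265 to 87937042) lay between 2.21 and 6.23 FPKM with a median of 3.98 FPKM, below Igf1r in 16 of 18 libraries. Whether counting used strand is not given in the sources used here, so reads of antisense neighbours cannot be told apart. Airn, antisense to Igf2r, was at most 0.977 FPKM, Igf1os, antisense to Igf1, at most 0.0705 FPKM, and Polr2b, which overlaps Igfbp7 on the other strand, at 13.1 to 28.7 FPKM.

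**Figure D1:**
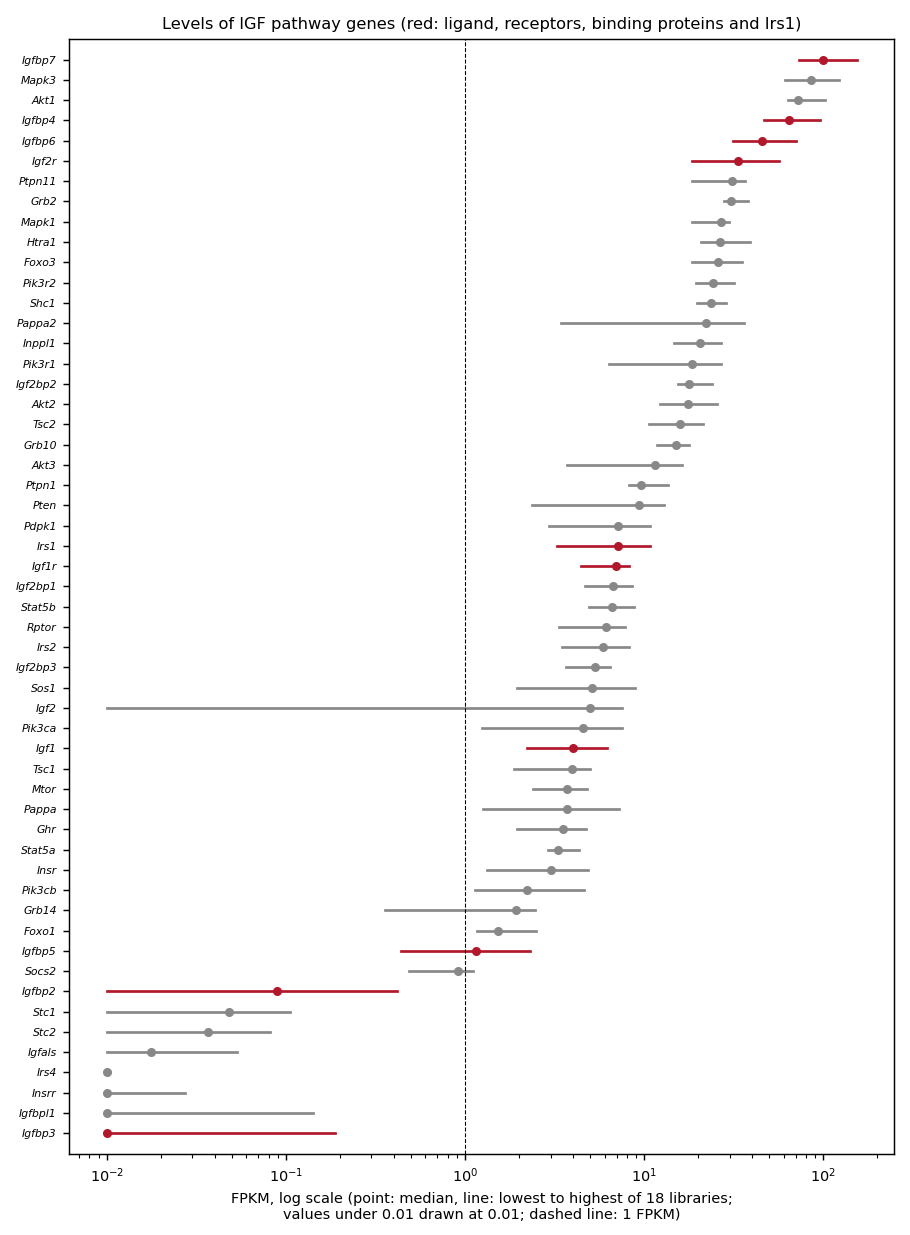
Levels of the 10 IGF genes (red) and 44 further genes of the pathway (grey) in FPKM on a log scale, with the median as a point and the lowest to highest of 18 libraries as a line. Igfbp7, Igfbp4, Igfbp6 and Igf2r are the highest red points, with medians of 99.9, 64.0, 45.4 and 33.4 FPKM, and Igfbp2 and Igfbp3 lie under the dashed line at 1 FPKM.

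Across the 6 groups, Igf1 and Igf2r were the members with an unadjusted p under 0.05, and no member passed the test over all genes. In edgeR's quasi-likelihood F-test for any difference among the groups, Igf2r had adjusted p = 0.443 and Igf1 had adjusted p = 0.452. Of 11936 genes tested, 0% passed at an adjusted p under 0.05 and 10.8% had an unadjusted p under 0.05, so 2 of 8 members is to be read against a background of about that share. Fold changes below are log2 values, from 1 fit of all 18 libraries unless another fit is named. Their standard error (SE) was taken from the test, as the absolute log2 fold change divided by the square root of its F.

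**Figure D2:**
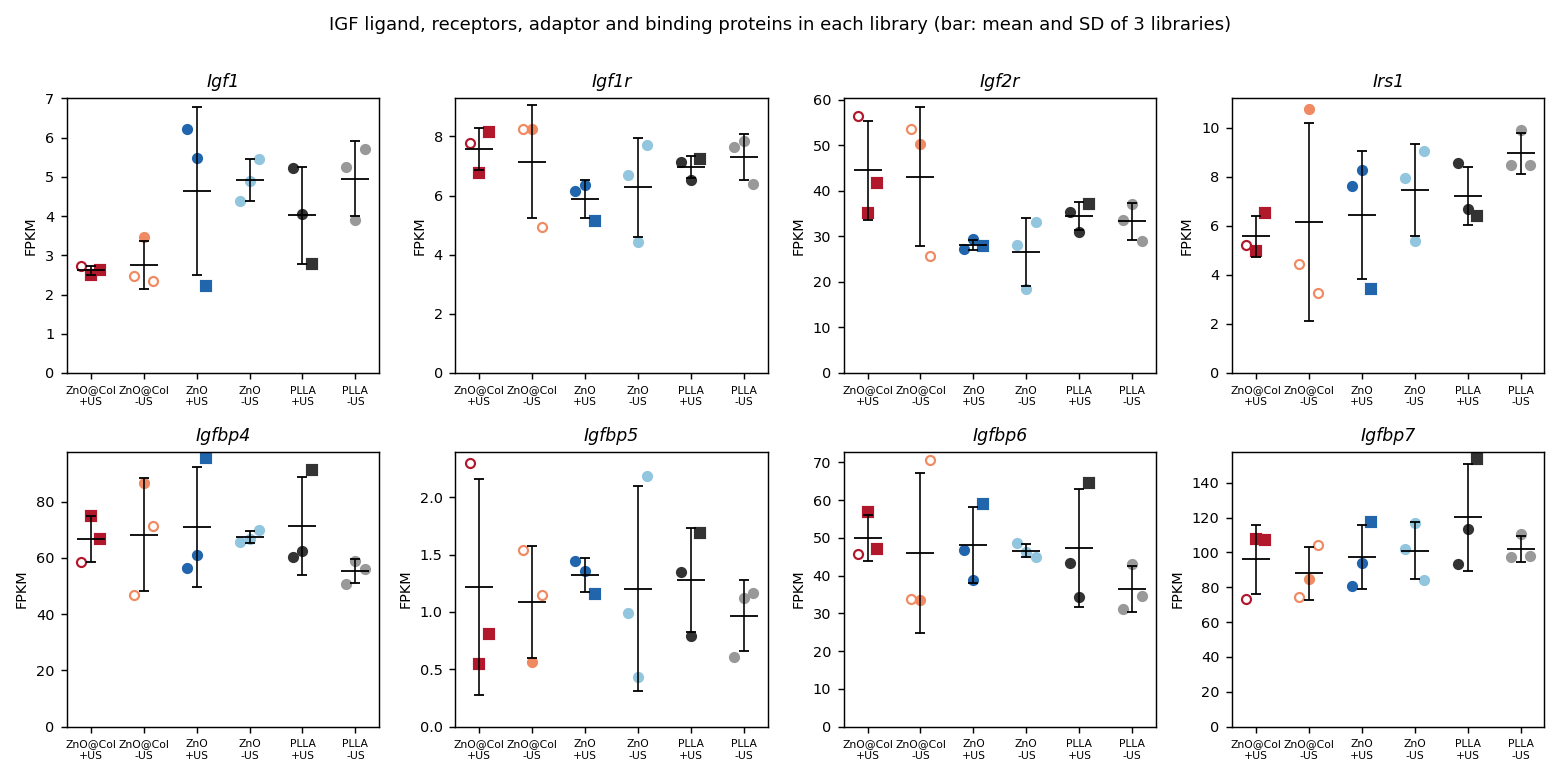
FPKM of the 8 tested members in each library, with groups on the horizontal axis (ZnO stands for PLLA/ZnO and ZnO@Col for PLLA/ZnO@Col) and bars at the mean ± SD of 3 libraries. Open circles are the 3 libraries with at most 0.386 FPKM of Y-linked genes and filled squares the other 4 libraries low in them, and these 7 hold the 7 lowest Igf1 values, from 2.21 to 2.77 FPKM.

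Between PLLA/ZnO@Col and PLLA/ZnO, Igf1 and Igf2r showed the largest member differences, Igf1 with lower and Igf2r with higher mean FPKM on collagen, in both ultrasound settings, and neither passed the test over all genes. With ultrasound, Igf1 was at 2.73, 2.49 and 2.62 FPKM on PLLA/ZnO@Col and at 6.23, 5.48 and 2.21 FPKM on PLLA/ZnO. The groups overlap, because PLLA/ZnO +US replicate 3 lies below all 3 collagen libraries. The log2 fold change was -0.80 (SE 0.32, adjusted p = 0.466 in edgeR). Without ultrasound, Igf1 was at 2.47, 3.47 and 2.34 FPKM on PLLA/ZnO@Col and at 4.40, 4.89 and 5.46 FPKM on PLLA/ZnO, with no overlap. Here the log2 fold change was -0.80 (SE 0.32, adjusted p = 0.300 in edgeR).

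Igf2r showed the reverse order. With ultrasound it was at 56.5, 35.2 and 41.8 FPKM on PLLA/ZnO@Col and at 27.2, 29.4 and 27.8 FPKM on PLLA/ZnO, with every PLLA/ZnO@Col library above every PLLA/ZnO library. The log2 fold change was 0.70 (SE 0.26, adjusted p = 0.451 in edgeR). Without ultrasound it was at 53.5, 50.3 and 25.6 FPKM on PLLA/ZnO@Col and at 28.1, 18.5 and 33.1 FPKM on PLLA/ZnO. These groups overlap through PLLA/ZnO@Col -US replicate 3, and the log2 fold change was 0.73 (SE 0.26, adjusted p = 0.249 in edgeR). The comparisons with and without ultrasound use different libraries throughout, but both take PLLA/ZnO as the reference. Mean Igf2r was 28.2 FPKM on PLLA/ZnO +US and 26.6 on PLLA/ZnO -US, against 34.5 on PLLA +US and 33.3 on PLLA -US. Set against PLLA -US, Igf2r on PLLA/ZnO@Col +US had a log2 fold change of 0.47 (SE 0.26, adjusted p = 0.222 in edgeR), with overlap.

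Among the genes tested, 0% passed for collagen in either setting, 9.43% had an unadjusted p under 0.05 with ultrasound and 12.9% without it, and 2 of 8 members did so in each. The libraries did not overlap, with collagen above, for 10.2% of genes with ultrasound and 5.09% without, and with collagen below for 5.08% and 6.31%. Without overlap were Igf1r and Igf2r above with ultrasound and Igf1 below without it. Igf1r was at 7.77, 6.77 and 8.15 FPKM on PLLA/ZnO@Col +US and at 6.17, 6.35 and 5.16 FPKM on PLLA/ZnO +US (log2 fold change 0.40, SE 0.21, adjusted p = 0.571 in edgeR). The 4 tested binding protein genes had log2 fold changes between -0.17 and 0.08 over both settings, with SE between 0.19 and 0.58. The median over the 8 members was -0.019 with ultrasound and -0.047 without, against 0.0030 and 0.036 over all genes tested.

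The Igf1 values ran with the library differences described above. The 7 libraries low in Y-linked reads were the 7 lowest in Igf1, at 2.21 to 2.77 FPKM, and the other 11 lay at 3.47 to 6.23 FPKM. Over all genes tested, 14.5% separate these 7 libraries from the 11 without overlap, and of the 8 members Igf1 alone did so. Of the 6 collagen libraries 5 are among the 7, so collagen and this difference between libraries cannot be told apart for Igf1. The sixth, PLLA/ZnO@Col -US replicate 2, had Igf1 at 3.47 FPKM, the lowest of the 11, and Igf2r at 50.3 FPKM, the highest of the 11. Without the 3 libraries lowest in Y-linked reads, the log2 fold changes for collagen were -0.85 with and -0.53 without ultrasound for Igf1 (adjusted p = 0.376 and 0.594). For Igf2r they were 0.45 and 0.89 (adjusted p = 0.378 and 0.0879). In these fits PLLA/ZnO@Col -US is a single library that is assumed to vary like those of the other groups.

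**Figure D3:**
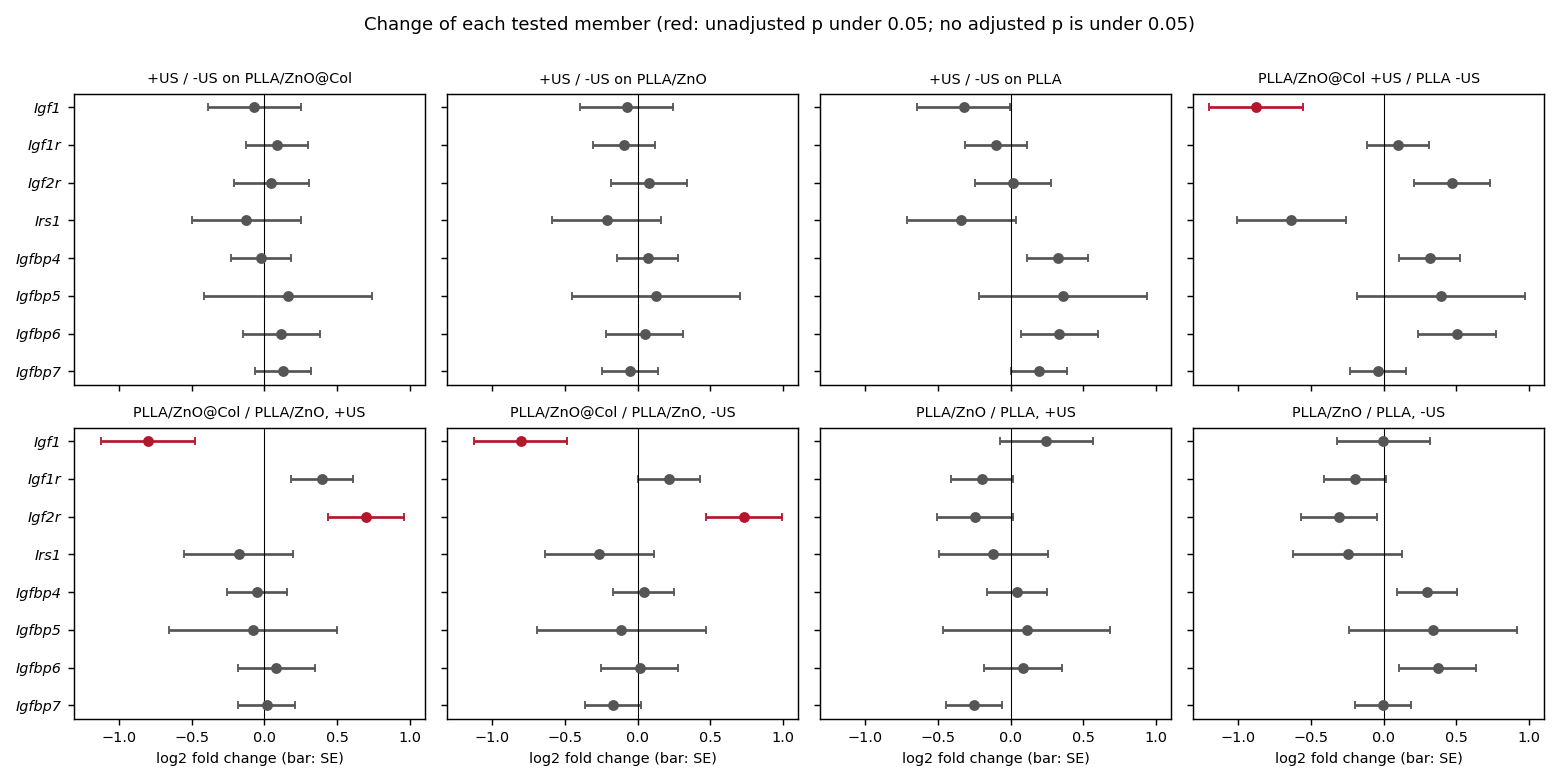
Log2 fold change with SE of the 8 tested members in each of 8 comparisons, each named as the group on top of the ratio over the group beneath it. Igf1 lies at -0.80 in both collagen panels and at -0.88 for PLLA/ZnO@Col +US over PLLA -US, and Igf2r at 0.70 and 0.73 in the collagen panels, the 5 values in red.

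The membrane with all components and ultrasound was also set against plain PLLA without it. Igf1 was at 2.73, 2.49 and 2.62 FPKM on PLLA/ZnO@Col +US and at 5.26, 3.89 and 5.72 FPKM on PLLA -US, without overlap (log2 fold change -0.88, SE 0.32, adjusted p = 0.174 in edgeR). Irs1 was at 5.21, 4.99 and 6.53 FPKM on PLLA/ZnO@Col +US and at 8.48, 9.92 and 8.47 FPKM on PLLA -US, also without overlap (log2 fold change -0.63, SE 0.38, adjusted p = 0.241 in edgeR). Igfbp6 was at 45.7, 56.9 and 47.1 FPKM on PLLA/ZnO@Col +US against 31.3, 43.2 and 34.7 FPKM on PLLA -US (log2 fold change 0.50, SE 0.27, adjusted p = 0.208 in edgeR). Such separation was common in this comparison, where the libraries did not overlap for 23.6% of genes upward and 27.1% downward, 26.7% of genes had an unadjusted p under 0.05 (14.9% above and 11.8% below) and 0% passed. All 3 PLLA/ZnO@Col +US libraries are low in Y-linked reads and none of the PLLA -US libraries is. When only these 6 libraries were fitted, Igf1 had an adjusted p of 0.0216 (log2 fold change -0.92), in a fit in which edgeR called 3521 genes.

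Ultrasound itself left no member with an unadjusted p under 0.05 on any membrane. On PLLA/ZnO@Col the log2 fold changes of the 8 members lay between -0.12 and 0.16, and 0 of 8 members had libraries that did not overlap, against 5.28% of all genes upward and 5.74% downward. The 2 largest were Igfbp5 at 0.16 (SE 0.58), with 2.30, 0.545 and 0.810 FPKM with ultrasound against 1.54, 0.566 and 1.15 FPKM without, and Igfbp7 at 0.13 (SE 0.19). The Igfbp5 value turns to -0.66 without PLLA/ZnO@Col +US replicate 1 and to -0.18 without PLLA/ZnO@Col -US replicate 2. On PLLA/ZnO, where again 0 of 8 were without overlap (6.82% of all genes upward and 4.62% downward), the largest were Irs1 at -0.21 (SE 0.37) and Igfbp5 at 0.13 (SE 0.58). Irs1 was at 7.62, 8.26 and 3.43 FPKM with ultrasound and at 7.96, 5.40 and 9.04 FPKM without, and its value turns to 0.084 without PLLA/ZnO +US replicate 3, a library low in Y-linked reads.

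On plain PLLA, ultrasound gave Igfbp5 a log2 fold change of 0.36 (SE 0.58) and Irs1 one of -0.34 (SE 0.37), both with an adjusted p of 0.978 in edgeR. Igfbp4 was the one member whose libraries did not overlap, at 60.3, 62.4 and 91.4 FPKM with ultrasound and at 50.9, 59.1 and 56.1 FPKM without. Its log2 fold change was 0.32 (SE 0.21, adjusted p = 0.978 in edgeR), and 4.99% of all genes were without overlap in this direction and 5.8% in the other. PLLA +US replicate 3, low in Y-linked reads, held the highest value of Igfbp4, Igfbp5, Igfbp6 and Igfbp7 and the lowest of Igf1 and Irs1 in its group, and its part in these values was not tested. Over all genes, an unadjusted p under 0.05 was found for 8.18% on PLLA/ZnO@Col, 3.24% on PLLA/ZnO and 0.436% on PLLA, and 0% passed on each. Averaged over the membranes, Irs1 was at -0.22 (SE 0.22) and Igfbp5 at 0.22 (SE 0.33), with 12.1% of genes under an unadjusted p of 0.05 and 0% passing. The test of whether the ultrasound change differs between membranes gave every member an adjusted p that rounds to 1 in edgeR, with 1.03% of genes under an unadjusted p of 0.05 and 0% passing.

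Zinc oxide gave no member an unadjusted p under 0.05 either. With ultrasound, Igfbp7 was at 80.8, 93.9 and 117 FPKM on PLLA/ZnO and at 93.3, 113 and 154 FPKM on PLLA (log2 fold change -0.25, SE 0.19), with overlap. Igf1 had a log2 fold change of 0.25 (SE 0.32) that turns to -0.037 without PLLA/ZnO +US replicate 1. Igf1r and Igf2r did not overlap, at 6.17, 6.35 and 5.16 FPKM on PLLA/ZnO against 7.14, 6.53 and 7.23 FPKM on PLLA for Igf1r, where 5.91% of all genes lay below and 2.03% above without overlap. Igf2r was at 27.2, 29.4 and 27.8 FPKM on PLLA/ZnO and at 35.3, 31.0 and 37.1 FPKM on PLLA. Their log2 fold changes were -0.19 (SE 0.21) and -0.24 (SE 0.26). PLLA/ZnO +US is also the group that PLLA/ZnO@Col +US was set against. The Igf1r and Igf2r values of both comparisons therefore share those libraries.

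Without ultrasound, Igfbp6 was at 48.5, 46.2 and 45.1 FPKM on PLLA/ZnO and at 31.3, 43.2 and 34.7 FPKM on PLLA, without overlap (log2 fold change 0.37, SE 0.27). Igfbp4 was likewise without overlap, at 65.6, 66.7 and 70.0 FPKM on PLLA/ZnO and at 50.9, 59.1 and 56.1 FPKM on PLLA (log2 fold change 0.30, SE 0.21). In this comparison 7.61% of genes lay above and 9.95% below without overlap, and PLLA -US is also the group that PLLA +US was set against, so the Igfbp4 values of both comparisons share those 3 libraries. Igfbp5 had a log2 fold change of 0.34 (SE 0.58) that turns to -0.43 without PLLA/ZnO -US replicate 3. Among all genes 1.27% with and 1.19% without ultrasound had an unadjusted p under 0.05, and 0% passed in either.

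The other IGF genes, 47 in a list of ligands, binding partners, proteases, adaptors and kinases, included 44 in the table and 38 that were tested. In edgeR's fit of all 18 libraries, 0 of the 38 passed in any comparison. For collagen with ultrasound 7 had an unadjusted p under 0.05, all above 0, and without ultrasound 3 above and 2 below 0. Under ultrasound on PLLA/ZnO@Col it was 6 above, for ultrasound averaged over the membranes 4 above, and for PLLA/ZnO@Col +US against PLLA -US 10 above and 5 below. For ultrasound or zinc oxide on the other membranes it was 0. In the test for any difference among the 6 groups it was 9 of the 38, against 10.8% of all genes. For the difference of ultrasound between membranes it was 1 of the 38, against 1.03% of all genes. The median log2 fold change of the 38 was 0.14 for collagen with ultrasound and 0.044 without, against 0.0030 and 0.036 over all genes. Over all genes, the log2 fold change had an unadjusted p under 0.05 and lay above 0 for 6.92% and below for 2.51% under collagen with ultrasound, for 7.77% and 5.17% without, and for 5.15% and 3.02% under ultrasound on PLLA/ZnO@Col. For PLLA/ZnO@Col +US against PLLA -US these shares were 14.9% and 11.8%, and for ultrasound averaged over the membranes 12.1% of all genes had an unadjusted p under 0.05 in either direction.

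Under collagen without ultrasound, the list's smallest p was that of Pappa2, the protease that cuts IGFBP3 and IGFBP5 (chromosome 1, 158711727 to 158980490). Without ultrasound, Pappa2 was at 7.11, 9.05 and 3.42 FPKM on PLLA/ZnO@Col and at 24.7, 15.1 and 36.2 FPKM on PLLA/ZnO, with every PLLA/ZnO@Col library below the lowest PLLA/ZnO library. The log2 fold change was -1.94 (SE 0.44, adjusted p = 0.0894 in edgeR), and the DESeq2 test, which called 407 genes here, gave an adjusted p of 0.00134. For any difference among the 6 groups, DESeq2 called 506 genes. Pappa2 was among them (adjusted p = 0.00238), while edgeR gave it an adjusted p of 0.236. With ultrasound it was at 8.21, 13.5 and 18.8 FPKM on PLLA/ZnO@Col and at 28.9, 31.8 and 11.4 FPKM on PLLA/ZnO (log2 fold change -0.81, SE 0.43, adjusted p = 0.568 in edgeR), with overlap through PLLA/ZnO +US replicate 3. Without the 3 libraries lowest in Y-linked reads the value without ultrasound was -1.52 (adjusted p = 0.182), and without PLLA/ZnO@Col -US replicate 2 it was -2.21 (adjusted p = 0.0194). Its relative Pappa, which cuts IGFBP4, was at 2.24, 1.86 and 2.61 FPKM on PLLA/ZnO@Col +US and at 4.13, 4.59 and 1.66 FPKM on PLLA/ZnO +US, with overlap (log2 fold change -0.60, SE 0.48, adjusted p = 0.717 in edgeR). Without ultrasound Pappa was at 2.47, 7.21 and 1.27 FPKM on PLLA/ZnO@Col and at 4.12, 2.59 and 4.54 FPKM on PLLA/ZnO (log2 fold change -0.034, SE 0.48, adjusted p = 0.994 in edgeR).

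Grb14, an adaptor that restrains the insulin receptor, was at 0.356, 1.41 and 0.407 FPKM on PLLA/ZnO@Col -US and at 1.99, 2.27 and 2.12 FPKM on PLLA/ZnO -US (log2 fold change -1.54, SE 0.46, adjusted p = 0.166 in edgeR). The low pair are the libraries with few Y-linked reads. Without the 3 such libraries the log2 fold change was -0.62 (adjusted p = 0.151), without PLLA/ZnO@Col -US replicate 2 it was -2.40 (adjusted p = 0.0107), and by DESeq2 the adjusted p was 0.0372. Irs2, the second IRS adaptor, was at 8.22, 7.85 and 7.94 FPKM on PLLA/ZnO@Col +US and at 5.86, 5.45 and 5.37 FPKM on PLLA/ZnO +US, without overlap (log2 fold change 0.56, SE 0.20, adjusted p = 0.430 in edgeR). Pik3r1 encodes a regulatory subunit of PI3 kinase. Pik3r1 was at 11.2, 8.27 and 12.5 FPKM on PLLA/ZnO@Col +US and at 26.7, 23.6 and 24.0 FPKM on PLLA -US (log2 fold change -1.17, SE 0.41, adjusted p = 0.173 in edgeR). Like Igf1, it separated the 7 libraries low in Y-linked reads, at 6.35 to 15.1 FPKM, from the other 11, at 17.3 to 26.7 FPKM. Ghr, the growth hormone receptor, which acts upstream of Igf1, did so as well, at 1.95 to 3.14 FPKM against 3.40 to 4.73 FPKM.

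Further pathway genes were named for their small p in a comparison. Under collagen with ultrasound, Inppl1, an inositol phosphatase, had a log2 fold change of 0.43, Igf2bp1, an RNA-binding protein named for Igf2 mRNA, one of 0.38 and Stat5a, a transcription factor of growth hormone signalling, one of 0.31 (adjusted p = 0.415, 0.448 and 0.457 in edgeR). Without ultrasound Igf2bp1 was at 0.40 and Pik3cb, a catalytic PI3 kinase subunit, at 0.79 (adjusted p = 0.251 and 0.289). Under ultrasound on PLLA/ZnO@Col, Stat5a, the phosphatase gene Ptpn1, Tsc2 and Inppl1 were at 0.42, 0.42, 0.39 and 0.33 on the log2 scale (adjusted p = 0.525 each in edgeR). Pappa2, with the next smallest p there, had a larger change of 1.05 (SE 0.43, adjusted p = 0.525 in edgeR), and its libraries overlap. For ultrasound averaged over the membranes, Akt2, Tsc2, Ptpn1 and Mapk3 were at 0.28, 0.27, 0.23 and 0.23 (adjusted p = 0.363 each in edgeR). For PLLA/ZnO@Col +US against PLLA -US, Pik3r2, Akt1 and Shc1 were at 0.52, 0.49 and 0.38 (adjusted p = 0.168, 0.171 and 0.173 in edgeR). Pik3r2 encodes a further regulatory subunit of PI3 kinase, and its change was opposite in sign to that of Pik3r1. In the edgeR fit of only these 6 libraries the adjusted p of Pik3r2, Akt1 and Shc1 was 0.0241, 0.0224 and 0.0396, and that of Pik3r1 was 0.0201. Akt1 separated the 7 libraries low in Y-linked reads, at 84.4 to 102 FPKM, from the other 11, at 63.6 to 74.3 FPKM. Pik3r2 did so too, at 25.6 to 31.8 FPKM against 19.3 to 25.2 FPKM, while Shc1 overlapped, at 23.8 to 28.7 FPKM against 19.8 to 25.1 FPKM. Since all 3 PLLA/ZnO@Col +US libraries and no PLLA -US library are among the 7, the groups and this library difference cannot be told apart here.

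Igf2, the second IGF ligand, was nearly missing from the 3 libraries lowest in Y-linked reads and present in every other one. It had 1 count in PLLA/ZnO@Col +US replicate 1 and 0 and 25 counts in PLLA/ZnO@Col -US replicates 1 and 3, against 1247 to 2753 counts in each of the other 15 libraries, or 3.75 to 7.48 FPKM. Its log2 fold change for collagen without ultrasound was -1.97 (SE 1.46, adjusted p = 0.656 in edgeR). On PLLA/ZnO@Col the replicates fall into separate sets for this ligand, with 0.00075, 4.95 and 5.82 FPKM with ultrasound and 0, 4.46 and 0.0697 FPKM without. Igf1 in the same 3 libraries was at 2.73, 2.47 and 2.34 FPKM, among the low values but well above its counting limit.

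**Figure D4:**
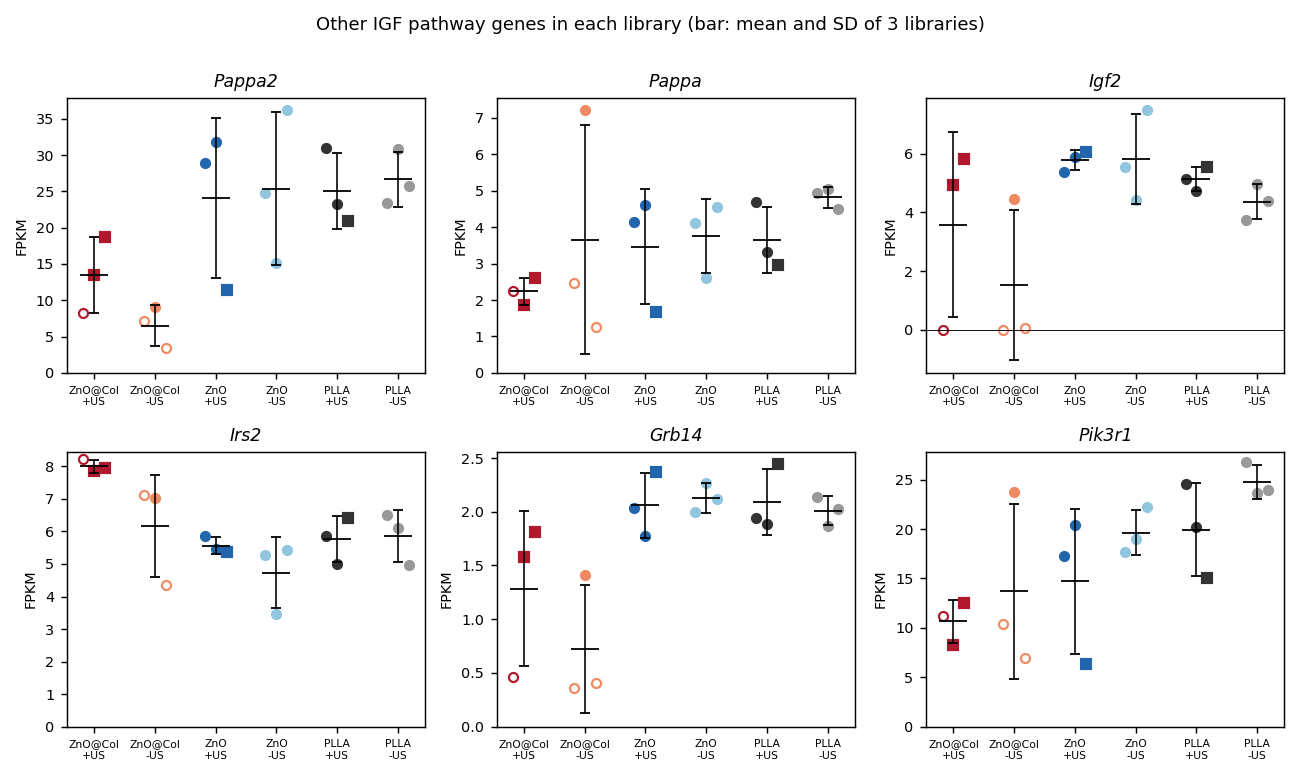
FPKM of 6 other IGF pathway genes in each library, with groups, symbols and bars (mean ± SD of 3 libraries) as in the plot of the 8 members. Igf2 lies at 0 to 0.0697 FPKM in the 3 open circles and at 3.75 to 7.48 FPKM elsewhere, and Pappa2 at 3.42 to 9.05 FPKM on PLLA/ZnO@Col -US against 15.1 to 36.2 FPKM on PLLA/ZnO -US.

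Each member was most like different genes across the 18 libraries, which share the library differences above, so these likenesses are descriptions. By Pearson's r of log2(FPKM + 1) over 18 libraries, Igf1 was most like Pdp1 (r = 0.942) and Ptn (r = 0.940), and Irs1 most like Pappa (r = 0.965) and Chsy1 (r = 0.961). Igf1r was most like Notch2 (r = 0.967) and Pcnx (r = 0.953), and Igf2r most like Gon4l (r = 0.961) and Mon2 (r = 0.953). Igfbp6 was most like Gpx4 (r = 0.972) and Tbcc (r = 0.964), Igfbp7 like Dtnbp1 (r = 0.920) and Bdkrb1 (r = 0.899), Igfbp4 like Litaf (r = 0.910) and Ctsd (r = 0.907), and Igfbp5 like Scd2 (r = 0.869) and S100b (r = 0.827). Within the 8 members, both receptors ran closest together (r = 0.860), and Igfbp6 and Irs1 ran most opposite (r = -0.582).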

How the data were processed

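Polyadenylated RNA from 18 libraries was sequenced after standard library preparation, as the labels' protocols state. According to the submitters' processing notes, cutadapt 1.9 and FastQC were used with build GRCm38. How reads were aligned and counted, and whether strand was used, is not given in the sources used here. Per the file headers, the authors' single table holds counts, whole numbers for each gene and library, and FPKM, both as deposited. Gene coordinates of the 10 members equal those of GENCODE M21.

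Genes with at least 1 FPKM in at least 3 libraries were tested, 11936 of 30452. Counts were normalized by TMM and tested in 1 fit with a mean per group (12 residual degrees of freedom) with the quasi-likelihood F-test of edgeR 4.0.16 (R 4.3.3), with Benjamini-Hochberg adjustment over all genes and calls at an adjusted p under 0.05. The common biological coefficient of variation was 0.28. When counts were simulated for the comparison of PLLA +US with PLLA -US (11936 genes), 1, 16, 39 and 45 of 50 genes changed 1.5-, 2-, 3- and 4-fold were recovered, with 4 false calls. Members and lists were chosen with earlier results of these data known. Log2 fold changes are printed for members with an unadjusted p under 0.05, otherwise for the 2 with the largest change, for up to 4 pathway genes by smallest p, and, added after the values were seen, for members whose libraries did not overlap. Pappa, Igf2, Ghr, Thy1 and Kap and the split of libraries by Y-linked reads at 10 FPKM were chosen after their values were seen. Alternatives were DESeq2 1.42.0, limma 3.58.1, other scalings, filters and fits, a replicate block, and leaving out libraries in turn. No pair of replicates agreed within sampling noise (lowest chi-square per degree of freedom 15.9).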

Additional observations from a re-analysis of the deposited data

How the results depend on the processing

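In the fit of all 18 libraries edgeR called 0 genes in each of the 11 tests, and no member passed in any of them. DESeq2 called no member either, with 5, 3, 1, 2, 407, 47 and 166 genes for ultrasound on PLLA/ZnO, ultrasound on PLLA/ZnO@Col, zinc oxide without and with ultrasound, collagen without and with ultrasound and PLLA/ZnO@Col +US against PLLA -US, 1 for ultrasound averaged over membranes and 506 for any difference among the 6 groups. Limma on log2(FPKM + 0.1) called 1 gene for collagen without ultrasound. Fitting only the 6 libraries of PLLA/ZnO@Col +US and PLLA -US called 3521, and there Igf1, Pik3r1, Akt1, Pik3r2 and Shc1 passed. Leaving out 1 library at a time gave 0 to 1 called genes for ultrasound on PLLA/ZnO, for zinc oxide with ultrasound and for the average, 0 to 38 for ultrasound on PLLA/ZnO@Col (38 without PLLA/ZnO@Col +US replicate 1), 0 to 1039 for collagen without ultrasound (1039 without PLLA/ZnO@Col -US replicate 2 and 18 without replicate 3) and 0 to 211 for any difference. Without the 3 libraries lowest in Y-linked reads, an alternative chosen after seeing the data, 111, 166, 1044, 6 and 25 genes were called for ultrasound on PLLA/ZnO@Col, collagen without ultrasound, the average, the difference of ultrasound between membranes and any difference.

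The 37 fold changes of members and pathway genes counted here are those printed by p or by size. Members printed only for lack of overlap, Pappa, Igf2, and Pappa2 other than for collagen without ultrasound are not among them. Over these 37 and 613 alternative values, 7 changed sign, all on leaving out 1 library. Another 10 alternative values passed the threshold that edgeR's value had missed. The 10 are those 5 genes in the 6-library fit, Pappa2 and Grb14 for collagen without ultrasound by DESeq2 and without PLLA/ZnO@Col -US replicate 2, and Mapk3 for averaged ultrasound without the 3 libraries lowest in Y-linked reads (adjusted p = 0.0442). For the 7, the leave-one-out ranges were -0.43 to 0.084 for Irs1 and -0.25 to 0.89 for Igfbp5 under ultrasound on PLLA/ZnO (Igfbp5 below 0 without PLLA/ZnO -US replicate 2), -0.66 to 0.53 for Igfbp5 under ultrasound on PLLA/ZnO@Col, -0.43 to 0.73 for Igfbp5 and zinc oxide without ultrasound, -0.037 to 0.58 for Igf1 and zinc oxide with ultrasound, and -0.038 to 0.47 for Igfbp5 under averaged ultrasound (below 0 without PLLA/ZnO@Col +US replicate 1). For collagen, Igf1 stayed between -1.14 and -0.52 with and between -0.96 and -0.70 without ultrasound, and Igf2r between 0.48 and 0.83 and between 0.51 and 0.997. The cause of these shifts was not tested. Same-numbered replicates were not treated as paired, because no label ties them and 21 of 45 same-numbered pairs, not all, correlated above 0.1. The median r was 0.064 for same-numbered and -0.025 for other pairs, and 11 of 18 libraries were best matched by one of their own number, a hint from the data and not from the design. With the replicate block 0 genes were called in each test.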
